A study of Homo sapiens with 9 samples.

Results

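The classical cadherins and the catenins that bind them were followed in RNA-seq of OVCAR4, an established human cell line of high-grade serous ovarian cancer. The 10 genes, CDH1, CDH2, CDH3, CDH4, CDH6, CDH11, CTNNB1, CTNNA1, CTNND1 and JUP, were taken from the deposited count table of 58735 genes by gene name. They were chosen with earlier results of these data known. All 10 were present in the table, and 8 passed the filter on low counts that left 16928 genes for testing. CDH4 and CDH11 did not pass. The study asked what MPZL3, a single-pass immunoglobulin-domain protein of epithelial cells, does in ovarian cancer. OVCAR4 cells were transduced with lentivirus that carried a scrambled shRNA (scr control, labelled WT) or one of a pair of hairpins against MPZL3 (shMPZL3 #1 and shMPZL3 #2, labelled knock-down), and all 3 groups were selected with puromycin for 3 days. Each group had 3 biological replicates, so 9 libraries were analysed, and both hairpins were compared with the same 3 scr control libraries. The labels and methods used here do not state whether replicates were separate transductions, and if they were not, p-values measure a spread that may be partly technical.

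Classical cadherins are calcium-dependent transmembrane adhesion proteins that bind like cadherins on the neighbouring cell. The cytoplasmic tail holds beta-catenin (CTNNB1) or plakoglobin, also called gamma-catenin (JUP), which recruits alpha-catenin (CTNNA1) and through it the actin cytoskeleton. A separate stretch nearer the membrane holds p120-catenin (CTNND1), which keeps the complex at the cell surface. E-cadherin (CDH1) is the main cadherin of most epithelia, P-cadherin (CDH3) of basal epithelial layers, and N-cadherin (CDH2) of neural, mesenchymal and mesothelial cells, R-cadherin (CDH4) is found in retina and brain, K-cadherin (CDH6) in developing kidney, and OB-cadherin (CDH11) in mesenchyme. Serous ovarian cancers commonly carry both E-cadherin and K-cadherin. Beta-catenin that is not held at junctions or destroyed can enter the nucleus and act with TCF/LEF factors on Wnt target genes.

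The library totals ranged from 15040102 to 27835841 counts. MPZL3 itself had 403 to 648 counts in scr control, 130 to 144 under shMPZL3 #1 and 281 to 375 under shMPZL3 #2, so the targeted transcript was lower in all 6 knockdown libraries and remained at a higher level with the second hairpin than with the first (log2 difference 1.28, edgeR's quasi-likelihood test with Benjamini-Hochberg adjustment, adjusted p = 5.72e-05). Of 12 markers of serous ovarian carcinoma, 11 passed the filter, PAX8, SOX17, EPCAM, KRT7 and KRT8 among them, while WT1 had 3 to 13 counts in any library. Of 14 markers of other cell types, DCN and HBB were at 0 in every library, and CD3E had at most 4 counts. Of the 9 that were tested, 4 were called higher under each hairpin and none lower (COL1A1, LUM and CD14 under both, COL1A2 under shMPZL3 #1 and CDH5 under shMPZL3 #2). Of all genes tested, 16.8% were called higher and 15.3% lower under shMPZL3 #1, and 9.36% and 5.8% under shMPZL3 #2. The calls of CD14 with either hairpin, of LUM under shMPZL3 #1 and of COL1A1 under shMPZL3 #2 did not hold without some single libraries. The summed level of all 14 was 637 to 674 normalized counts in the scr libraries, 1085 to 1499 under shMPZL3 #1 and 1055 to 1124 under shMPZL3 #2. In bulk RNA, a change in the number of cells of a kind and a change in the RNA per cell cannot be told apart.

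The cadherins are related genes, and parts of their coding sequences are alike. The 6 stretches of 45 coding bases shown here were placed around the longest coding run that CDH1 and CDH2 share. In the other cadherins the best in-frame match to the CDH1 stretch was taken, so their likeness follows from that choice. They lie in the part of the tail that binds beta-catenin, each within 1 exon. They are given because they show how far reads of one cadherin could be taken for those of another. The capitals mark the 15 bases that all 6 share.
CDH1: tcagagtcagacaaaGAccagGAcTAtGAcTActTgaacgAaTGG
CDH2: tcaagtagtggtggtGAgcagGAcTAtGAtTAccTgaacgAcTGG
CDH3: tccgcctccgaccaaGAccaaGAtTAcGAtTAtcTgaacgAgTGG
CDH4: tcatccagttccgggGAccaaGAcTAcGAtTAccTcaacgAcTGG
CDH6: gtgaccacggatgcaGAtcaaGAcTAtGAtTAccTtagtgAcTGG
CDH11: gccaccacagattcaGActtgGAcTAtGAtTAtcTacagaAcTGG
On GRCh38 they are found at chr16:68833401-68833445 (CDH1, plus strand), chr18:27952204-27952248 (CDH2, minus strand), chr16:68698302-68698346 (CDH3, plus strand), chr20:61936845-61936889 (CDH4, plus strand), chr5:31323201-31323245 (CDH6, plus strand) and chr16:64947669-64947713 (CDH11, minus strand), as read from the transcripts of GENCODE release 29. CDH3 matched CDH1 at 33 of the 45 bases, CDH2 at 30, CDH4 at 28, and CDH6 and CDH11 at 26 each. The longest run of identical bases between any pair of the 10 genes, over one transcript of each, was 27 bases, between CDH3 and CDH6, and 18 bases within coding sequence, between CDH1 and CDH2. CTNNB1 and JUP, the most alike of the catenins, shared a run of at most 17 bases.

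CDH1 and CDH3 are neighbours on the plus strand of chromosome 16, CDH3 from 68636189 to 68722616 and CDH1 from 68737225 to 68835548. CDH6 lies on chromosome 5 from 31193750 to 31329146, and CDH2 on chromosome 18 from 27950966 to 28177446. The libraries do not keep the strand, so reads of a gene that overlaps a member could be counted on either. The overlapping genes with the most counts were ULK4, with 1453 counts over the 9 libraries and no exon bases shared with CTNNB1, and LRRTM2, with 105 counts against 160496 for CTNNA1. Those that overlap CDH6 had at most 4 counts in all, against 74113 for CDH6. Among them, DUX4L51 shared 1109 exon bases with CDH6 and had 0 counts. How reads in shared bases were counted was not examined, so low counts of an overlapping gene cannot show that a member lost no reads there.

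With the deposited gene length, the catenins were more abundant than the cadherins in scr control, with the exception of CTNNB1. Levels of different genes are compared as TPM, that is counts per kilobase of the gene length column, scaled to the same total in each library. JUP (314 ± 15.9 TPM, SD, n = 3) and CTNNA1 (312 ± 8.12 TPM) were highest and overlapped in range. CTNND1 followed at 166 ± 5.76 TPM, CDH6 at 152 ± 14.2 TPM and CDH1 at 136 ± 6.35 TPM, and each of these overlapped the next in range. CTNNB1 was lower, at 113 ± 3.52 TPM, then CDH3 at 60.3 ± 3.36 TPM and CDH2 at 15 ± 1.01 TPM, none of which overlapped its neighbours. CDH4 and CDH11 had no counts in the 3 scr control libraries. The order turned with the length used. With the longest coding transcript of each gene, CTNNB1 (285 ± 8.87 TPM, rescaled to that length) was above CTNND1 (223 ± 7.73) and all cadherins, and CTNNA1 (719 ± 18.7) was above JUP (444 ± 22.4), in both cases without overlap. Without a length, CDH6 had the second highest mean count (9955 per scr control library), below CTNNA1 and above JUP (8214).

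Members were called in both directions, and the share of all genes called is given beside each count. With 8 members tested, the counts were not tested against those shares. With both hairpins pooled as one group (the grouped comparison, 6 libraries against 3 of scr control), CDH3 was called higher and CDH6 lower at an edgeR adjusted p under 0.05, and the other 6 tested members were not called. Of all 16928 genes tested, 9.36% were called higher and 6.4% lower in the same comparison. With shMPZL3 #1, 3 members were called higher (CDH1, CDH3 and CTNND1) and CDH6 lower, where 16.8% and 15.3% of all genes were called higher and lower. With shMPZL3 #2, CDH3 was called higher and CDH6 lower, where 9.36% and 5.8% of all genes were called. Between the hairpins, CDH2 was higher and CDH3 lower under shMPZL3 #2, where 7.56% of all genes were called in each direction. The median log2 fold change of the 8 tested members in the grouped comparison was 0.17, and that of all genes tested was 0.02.

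**Figure D1:**
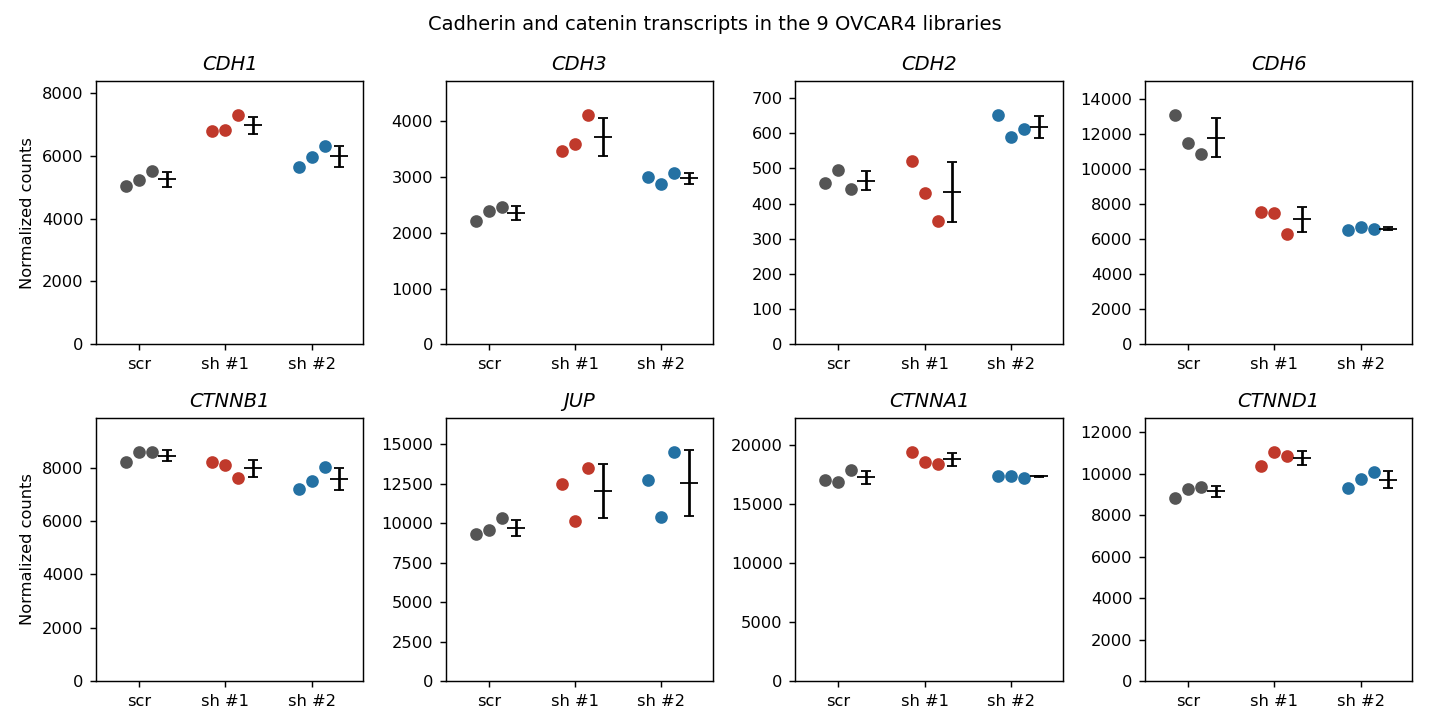
Normalized counts (counts after TMM scaling, brought to the average library size) of the 8 tested cadherins and catenins in the 9 OVCAR4 libraries, 1 point per library, with the mean and SD of each group of 3 beside the points (sh #1 and sh #2 are the hairpins against MPZL3). The 6 knockdown libraries lie below all scr control libraries for CDH6 (6299 to 7542 against 10858 to 13057) and above them for CDH1 and CDH3. Of all genes tested, 11% lie below and 11.8% above in this way.

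CDH6, the kidney-type cadherin, had 13057, 11458 and 10858 normalized counts in the scr libraries replicates 1 to 3. It had 7542, 7511 and 6299 under shMPZL3 #1, and 6511, 6697 and 6580 under shMPZL3 #2. All 6 knockdown libraries were below all 3 scr control libraries, a position that 11% of all genes tested held (exact two-sided permutation of log2 CPM, p = 0.0119, the smallest that 6 against 3 libraries can give). In the grouped comparison CDH6 fell by 0.78 on the log2 scale (SE 0.0974, 95% interval -0.99 to -0.57, edgeR adjusted p = 0.000474). The fall was 0.73 under shMPZL3 #1 (SE 0.102, adjusted p = 7.2e-05), and under shMPZL3 #2 CDH6 fell by 0.84 (SE 0.102, adjusted p = 3.53e-05). The hairpins differed from each other by -0.11 (95% interval -0.32 to 0.10, adjusted p = 0.521), although MPZL3 was reduced less by the second. CDH6 was the largest change among the 8 tested members in each comparison with scr control, and its call held in all 17 alternative settings of each. The summed markers of other cell types moved in the opposite direction, as given above, and their part in the result was not tested.

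CDH3, or P-cadherin, rose with both hairpins. It had 2218, 2391 and 2458 normalized counts in the scr libraries, 3462, 3594 and 4108 under shMPZL3 #1, and 3000, 2871 and 3067 under shMPZL3 #2. The 3 groups did not overlap, and shMPZL3 #2 lay between the other two. For 3 libraries against 3, such a separation gave an exact permutation p of 0.1, the smallest possible. How many of all genes hold it was not counted, here and for the members below. All 6 knockdown libraries being above all scr control libraries held for 11.8% of all genes tested (exact permutation p = 0.0119). The grouped log2 fold change was 0.51 (SE 0.12, 95% interval 0.25 to 0.77, edgeR adjusted p = 0.0142). With shMPZL3 #1 it was 0.66 (SE 0.0963, adjusted p = 1e-04), and under shMPZL3 #2 0.34 (SE 0.0962, adjusted p = 0.0247). The difference between hairpins, tested directly, was -0.32 (95% interval -0.52 to -0.12, adjusted p = 0.0313), and 10 of 17 alternatives called it. It did not pass without replicate 2 or 3 of scr control, without shMPZL3 #1 replicate 3 and without any one library of shMPZL3 #2 (adjusted p = 0.0522 to 0.126). The grouped call was lost when any one scr control library was left out (adjusted p = 0.101, 0.0631 and 0.0512 without replicates 1, 2 and 3), with log2 fold changes of 0.46 to 0.53. The call under shMPZL3 #2 was lost without any one scr control library or without its own replicate 1 or 3 (adjusted p = 0.0623 to 0.134), and that under shMPZL3 #1 was kept in every alternative.

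CDH1, or E-cadherin, had 5026, 5217 and 5513 normalized counts in the scr libraries. The values were 6808, 6829 and 7292 under shMPZL3 #1, and 5649, 5979 and 6327 under shMPZL3 #2. No knockdown library was below any scr control library, a position that 11.8% of all genes tested held (exact permutation p = 0.02381 for 6 against 3). The lowest value under shMPZL3 #2 was close to the highest scr control value. With shMPZL3 #1 CDH1 rose by 0.41 on the log2 scale (SE 0.0909, edgeR adjusted p = 0.00256), and this call held in all 17 alternatives. With shMPZL3 #2 the log2 fold change was 0.19 (95% interval -0.0031 to 0.38, adjusted p = 0.177). The grouped value was 0.30 (SE 0.101, 95% interval 0.09 to 0.52, adjusted p = 0.0573), and 5 of 17 alternatives called it, DESeq2 among them (adjusted p = 0.0254). The difference between the hairpins, -0.22 (95% interval -0.41 to -0.03), did not pass after adjustment (adjusted p = 0.112).

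CDH2, or N-cadherin, was the least abundant of the 4 cadherins tested. It had 459, 495 and 441 normalized counts in the scr libraries, 521, 429 and 350 under shMPZL3 #1, and 651, 588 and 613 under shMPZL3 #2. The shMPZL3 #2 libraries were above all others, while those of shMPZL3 #1 lay on both sides of the scr control range, replicate 1 above it and replicates 2 and 3 below. The grouped log2 fold change was small beside its error (0.17, SE 0.174, 95% interval -0.20 to 0.55, edgeR adjusted p = 0.528). The value was -0.10 under shMPZL3 #1 (SE 0.139, adjusted p = 0.614) and 0.41 under shMPZL3 #2 (SE 0.138, 95% interval 0.12 to 0.70, adjusted p = 0.0558). The latter passed the threshold in 8 of 17 alternatives, DESeq2 among them (adjusted p = 0.0415). The difference between the hairpins was 0.51 (95% interval 0.22 to 0.80, adjusted p = 0.0187). It did not pass without shMPZL3 #1 replicate 3, where it was 0.38 (adjusted p = 0.086), nor without shMPZL3 #2 replicate 1 or 3 (adjusted p = 0.0684 and 0.0609).

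CDH4 and CDH11 were near the floor of detection. CDH4 had 0 counts in each scr control library, 4, 0 and 6 under shMPZL3 #1 and 2, 3 and 0 under shMPZL3 #2. CDH11 had a single count, in shMPZL3 #2 replicate 3. A count of 0 in a library allows up to 3 counts there, for counting error only, and no fold change is given for either gene.

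**Figure D2:**
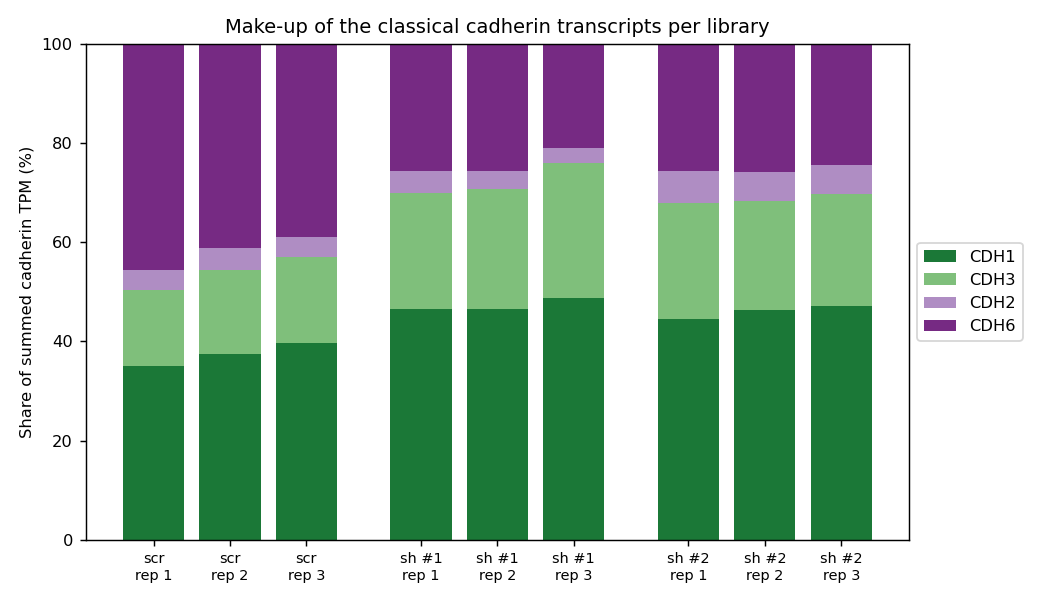
Share (%) of CDH1, CDH3, CDH2 and CDH6 in the summed TPM of the 6 classical cadherins in each of the 9 libraries; CDH4 and CDH11 are too low to be seen. The CDH6 share is 38.9% to 45.5% in scr control and 21.0% to 25.9% in the knockdown libraries.

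The make-up of the cadherin transcripts differed more between knockdown and control than their sum. The summed TPM of the 6 cadherins was 363 ± 4.86 in scr control, 373 ± 17.6 under shMPZL3 #1 and 325 ± 10.9 under shMPZL3 #2 (SD, n = 3 each), and all libraries of the second hairpin were below those of scr control. CDH6 made up 41.8% ± 3.36 of it in scr control, 24.1% ± 2.65 under shMPZL3 #1 and 25.3% ± 0.753 under shMPZL3 #2. CDH1 made up 37.4% ± 2.25, 47.3% ± 1.32 and 46.0% ± 1.35 in the same order, and CDH3 16.6% ± 1.13, 25.0% ± 2.01 and 22.7% ± 0.694. The CDH2 share stayed small, at 4.13% ± 0.267, 3.67% ± 0.757 and 5.93% ± 0.41. Without a length, the CDH6 share was 59.3% ± 3.33 in scr control, 39.0% ± 3.54 for the first hairpin and 40.8% ± 0.977 for the second. These shares add up to a whole, so a fall in one raises the others, and they were not tested.

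The ratio of CDH6 to CDH1 TPM was 1.30, 1.10 and 0.983 in scr control, 0.553, 0.549 and 0.431 under shMPZL3 #1, and 0.575, 0.559 and 0.519 under shMPZL3 #2. The scr control libraries were all above the knockdown libraries, which did not separate by hairpin. With the longest coding transcript as the length, the ratio was 1.30 ± 0.184 in scr control, 0.591 ± 0.08 under shMPZL3 #1 and 0.637 ± 0.0334 under shMPZL3 #2. Without a length it was 2.25 ± 0.318, 1.02 ± 0.139 and 1.10 ± 0.058, so CDH1 stood clearly above CDH6 in the knockdown libraries only per length. The ratio of CDH2 to CDH1, often read as the balance of N- and E-cadherin, was 0.111 ± 0.00967 in scr control, 0.0779 ± 0.0178 under shMPZL3 #1 and 0.129 ± 0.0127 under shMPZL3 #2. The hairpins thus lay on opposite sides of scr control for that ratio, and in each group CDH1 was the more abundant.

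**Figure D3:**
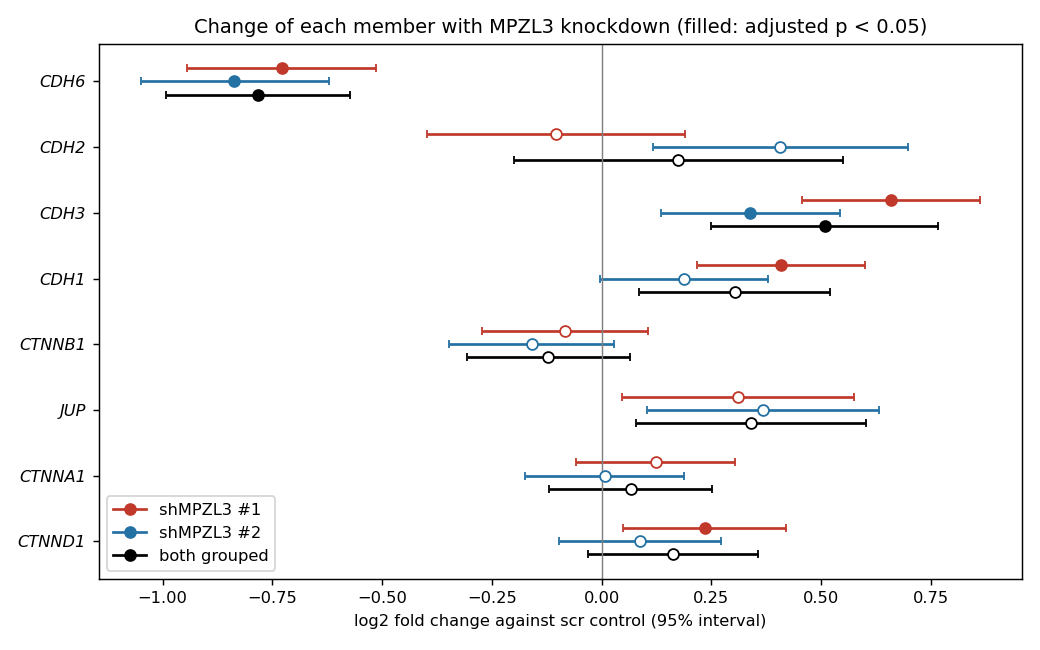
Log2 fold change against scr control with its 95% interval for the 8 tested members, for each hairpin and for both grouped (filled points have an edgeR adjusted p under 0.05). CDH6 lies at -0.73 to -0.84, and the intervals of CTNNB1 and CTNNA1 include 0 in each comparison.

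Among the catenins, CTNNB1, which links the cadherin tail to alpha-catenin and is the effector of Wnt signalling, was not called in any comparison. It had 8223, 8599 and 8585 normalized counts in the scr libraries, 8228, 8121 and 7625 under shMPZL3 #1, and 7203, 7501 and 8042 under shMPZL3 #2. The shMPZL3 #2 libraries were below all scr control libraries, and those of shMPZL3 #1 overlapped them. The grouped log2 fold change was -0.12 (95% interval -0.31 to 0.06, edgeR adjusted p = 0.36), with values of -0.08 and -0.16 for shMPZL3 #1 and #2 (adjusted p = 0.512 and 0.251).

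JUP, or plakoglobin, which takes the place of beta-catenin at junctions and also serves desmosomes, had 9341, 9546 and 10306 normalized counts in the scr libraries. The values were 12523, 10174 and 13522 under shMPZL3 #1, and 12758, 10388 and 14518 under shMPZL3 #2. Replicate 2 of each hairpin was near the scr control range and the other 4 knockdown libraries were well above it. The log2 fold change was 0.34 grouped (SE 0.122, 95% interval 0.08 to 0.60, edgeR adjusted p = 0.0733), 0.31 under shMPZL3 #1 (SE 0.125, adjusted p = 0.0672) and 0.37 under shMPZL3 #2 (SE 0.125, adjusted p = 0.0565). The call changed with the setting: JUP passed under shMPZL3 #1 in 9 and under shMPZL3 #2 in 9 of 17 alternatives, and DESeq2 called it in the grouped comparison (adjusted p = 0.0454). Without shMPZL3 #1 replicate 2 its value with that hairpin was 0.42 (adjusted p = 0.0162), and without shMPZL3 #2 replicate 2 that with the other was 0.48 (adjusted p = 0.0113). The summed level of the 12 ovarian carcinoma markers was also lowest in replicate 2 of each hairpin (123699 and 121794 normalized counts, against 133782 to 154708 in the other 4 knockdown libraries), and its part in the result was not tested. Per length, JUP exceeded CTNNB1 by a ratio of 2.77 ± 0.112 in scr control, 3.66 ± 0.628 under shMPZL3 #1 and 3.99 ± 0.564 under shMPZL3 #2. With the longest coding transcript as the length those ratios were 1.56 ± 0.063, 2.05 ± 0.352 and 2.24 ± 0.316.

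CTNNA1, the actin-binding alpha-catenin of epithelia, had 17058, 16904 and 17870 normalized counts in the scr libraries, 19430, 18621 and 18410 under shMPZL3 #1, and 17384, 17417 and 17266 under shMPZL3 #2. Only the shMPZL3 #1 libraries were all above scr control. Its log2 fold change was 0.12 under shMPZL3 #1 (95% interval -0.06 to 0.30, edgeR adjusted p = 0.295) and 0.0065 under shMPZL3 #2 (95% interval -0.17 to 0.19, adjusted p = 0.971). The intervals leave room for a change of at most 0.30 on the log2 scale with either hairpin.

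CTNND1, or p120-catenin, had 8841, 9271 and 9356 normalized counts in the scr libraries, 10400, 11055 and 10866 under shMPZL3 #1, and 9305, 9772 and 10103 under shMPZL3 #2. The shMPZL3 #1 libraries were above all scr control libraries and those of shMPZL3 #2 overlapped them. The log2 fold change under shMPZL3 #1 was 0.23 (SE 0.0877, edgeR adjusted p = 0.0499), and only 6 of 17 alternatives called it. It was lost without any one scr control library, without shMPZL3 #1 replicate 2 or 3 and without any one shMPZL3 #2 library (adjusted p = 0.0542 to 0.169). The values were 0.09 under shMPZL3 #2 (95% interval -0.10 to 0.27, adjusted p = 0.549) and 0.16 grouped (95% interval -0.03 to 0.36, adjusted p = 0.239).

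Genes that act with the cadherins and catenins were counted in lists by role. Of all genes tested, 9.36% were called higher and 6.4% lower in the grouped comparison. Of 17 other cadherins, 8 passed the filter. In the grouped comparison CDH18 was lower and none was higher. The hairpins differed in CDH5 (VE-cadherin, the cadherin of endothelium), which had 83.2 ± 15.2 normalized counts in the scr libraries, 65.9 ± 12.7 under shMPZL3 #1 and 173 ± 22.5 under shMPZL3 #2 (difference between hairpins 1.39 on the log2 scale, edgeR adjusted p = 0.000395). Of the other endothelial markers, VWF had 100 ± 11.3, 92.9 ± 9.52 and 105 ± 27.7 normalized counts and was not called (difference between hairpins 0.18, adjusted p = 0.64), and PECAM1 had at most 18 counts in any library. CDH18 and CDH26 also differed between the hairpins (0.44, adjusted p = 0.0293, and -2.14, adjusted p = 0.0298). CDH26 had 1 to 39 counts in the knockdown libraries, and its difference did not pass without shMPZL3 #1 replicate 2 or 3 or shMPZL3 #2 replicate 1 (adjusted p = 0.0667 to 0.103). That of CDH18 did not pass without shMPZL3 #1 replicate 3, without shMPZL3 #2 replicate 2 or 3 (adjusted p = 0.0821 to 0.114) or with only the 2 groups compared (adjusted p = 0.0747). CDH18 had 553 ± 15.6, 332 ± 34.0 and 450 ± 51.2 normalized counts, and its grouped call (log2 fold change -0.50, adjusted p = 0.0389) did not hold without any one scr control or shMPZL3 #1 library or shMPZL3 #2 replicate 1 (adjusted p = 0.0507 to 0.127). CDH18, CDH5, CDH26, VWF and PECAM1 were named after their values were seen.

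Of 10 other catenins and armadillo proteins, 7 were tested and ARVCF and CTNNBIP1 were higher in the grouped comparison. ARVCF, a relative of p120-catenin that binds the same stretch of the cadherin tail, rose from 423 ± 46.3 normalized counts in the scr libraries to 848 ± 121 under shMPZL3 #1 and 639 ± 9.07 under shMPZL3 #2. Its log2 fold changes were 1.00 (adjusted p = 3.01e-05) and 0.59 (adjusted p = 0.0042) by edgeR's quasi-likelihood test. CTNNBIP1, which keeps beta-catenin from TCF factors, was named after its values were seen. It had a log2 fold change of 0.68 under shMPZL3 #1 (edgeR adjusted p = 0.000137) and 0.31 under shMPZL3 #2 (adjusted p = 0.0502). Its grouped call was lost without any one scr control library (adjusted p = 0.0591 to 0.129).

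All 20 junction adaptors and nectins were tested. In the grouped comparison 4 were higher (LIMA1, ACTN1, NECTIN1 and NECTIN4) and NECTIN3 was lower, and under shMPZL3 #1 7 were higher and 2 lower, where 16.8% and 15.3% of all genes were called. Under shMPZL3 #2 3 were higher and 2 lower, where the shares over all genes were 9.36% and 5.8%. The same shares stand behind the counts of the lists that follow. LIMA1 (EPLIN), which ties alpha-catenin to actin filaments, rose from 2877 ± 531 normalized counts to 6523 ± 1203 under shMPZL3 #1 and 4475 ± 656 under shMPZL3 #2. ACTN1, an actin cross-linker, rose from 14784 ± 1180 to 27313 ± 2467 and 24697 ± 2781. NECTIN3, an immunoglobulin-family adhesion protein of the same junctions, fell from 1865 ± 117 to 1400 ± 213 and 931 ± 79.1. All 3 passed with each hairpin by edgeR (adjusted p = 2.24e-05 to 0.0112). The call of LIMA1 under shMPZL3 #2 did not hold without replicate 1 of scr control (adjusted p = 0.0593), and that of NECTIN3 under shMPZL3 #1 without scr control replicate 2 or shMPZL3 #1 replicate 3 (adjusted p = 0.059 and 0.0621). The grouped call of LIMA1 did not hold without scr control replicate 1 (edgeR adjusted p = 0.0763). That of NECTIN3 did not hold without scr control replicate 1 or 2 (adjusted p = 0.0855 and 0.0859). The grouped call of NECTIN4 did not hold without any one scr control library (adjusted p = 0.0831 to 0.0925).

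Of 19 genes that cleave or recycle cadherins, 17 were tested, and the 2 called in the grouped comparison, MMP7 and MMP14, were higher. MMP7, or matrilysin, a protease known to cut E-cadherin outside the cell, rose from 7283 ± 615 normalized counts to 15012 ± 3978 under shMPZL3 #1 (log2 fold change 1.04, edgeR adjusted p = 0.000342) and 21507 ± 5088 under shMPZL3 #2 (1.56, adjusted p = 2.09e-05). MMP14, a membrane-bound metalloprotease, rose from 510 ± 67.1 to 899 ± 218 and 819 ± 82.7, and its grouped call did not hold without scr control replicate 1 (adjusted p = 0.0594). The median over the 17 was 0.13 in the grouped comparison. With shMPZL3 #1 5 were higher and none lower, and under shMPZL3 #2 3 were higher and 1 lower.

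All 15 genes of the beta-catenin destruction complex, which marks free beta-catenin for degradation, were tested, and AXIN2 alone was called. It was lower with both hairpins. AXIN2, which is also a widely used Wnt target, had 227 ± 10.4 normalized counts in the scr libraries, 128 ± 18.4 under shMPZL3 #1 and 129 ± 56.6 under shMPZL3 #2 (log2 fold changes -0.83 and -0.82, edgeR adjusted p = 0.0146 and 0.029). Both calls depend on single libraries: the first was lost without shMPZL3 #1 replicate 3 (adjusted p = 0.0694) and the second without any one scr control library or shMPZL3 #2 replicate 2 or 3 (adjusted p = 0.0624 to 0.12). Of 20 Wnt nuclear factors and targets, AXIN2 included, 17 were tested. With shMPZL3 #1 5 were higher and 5 lower, and under shMPZL3 #2 4 were higher and 2 lower. LGR5, a stem cell receptor and Wnt target, fell from 641 ± 254 to 243 ± 146 and 107 ± 99.2, and its libraries spread widely in every group. Its call under shMPZL3 #1 was lost with DESeq2 (adjusted p = 0.136), without scr control replicate 1 and without replicate 2 or 3 of that hairpin (adjusted p = 0.0749 to 0.124). NOTUM, a secreted Wnt inhibitor and Wnt target, rose from 217 ± 26.7 to 389 ± 68.9 and 475 ± 61.5, and PYGO1, a nuclear partner of the beta-catenin complex, rose from 142 ± 5.66 to 243 ± 29 and 278 ± 49.3. The named targets thus did not move one way.

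Of 19 E-cadherin repressors and epithelial regulators, 13 were tested. In the grouped comparison 3 were higher and none lower. With shMPZL3 #1 4 were higher and 2 lower, and under shMPZL3 #2 2 were higher and 1 lower. Among the transcription factors known to repress CDH1, SNAI2 had at most 2 counts and ZEB1 at most 3 in any library, so a change in them was not detectable at this depth. SNAI1, named after its values were seen, had 170 ± 10.8 normalized counts in the scr libraries, 309 ± 50.7 under shMPZL3 #1 and 166 ± 32.4 under shMPZL3 #2, and rose with the first hairpin (log2 fold change 0.86, edgeR adjusted p = 0.00135). KLF4, also named after its values were seen, had 111 ± 34.3 normalized counts in the scr libraries, 245 ± 47.7 under shMPZL3 #1 and 152 ± 3.43 under shMPZL3 #2. ELF3 and GRHL1, epithelial transcription factors, rose with both hairpins. ELF3 went from 2411 ± 266 to 4068 ± 643 and 3607 ± 399 normalized counts (its grouped call did not pass without replicate 1 of scr control, adjusted p = 0.0525), and GRHL1 from 168 ± 2.28 to 240 ± 18 and 241 ± 10.8. The call of GRHL1 under shMPZL3 #2 was lost without any one scr control library or replicate 1 or 3 of that hairpin (adjusted p = 0.066 to 0.0826). It was also lost without a filter on low counts (adjusted p = 0.0506). The grouped call of GRHL1 was lost without any one scr control library or without that filter (adjusted p = 0.0536 to 0.0957). The members of the list that fell were named after their values were seen. KLF5, an epithelial transcription factor, fell by 0.45 under shMPZL3 #1 (adjusted p = 0.00177) and had a value of 0.14 under shMPZL3 #2 (adjusted p = 0.365). ESRP2, an epithelial splicing factor, fell by 0.32 under shMPZL3 #1 (adjusted p = 0.0349), and GRHL2, a relative of GRHL1, by 0.32 under shMPZL3 #2 (adjusted p = 0.025). The call of ESRP2 was lost without any one scr control or shMPZL3 #1 library, and that of GRHL2 without any one scr control library or shMPZL3 #2 replicate 3 (adjusted p = 0.0576 to 0.151). ESRP2 also did not pass with upper-quartile normalization, without a filter or with at least 10 counts in every library (adjusted p = 0.0538 to 0.0556). GRHL2 did not pass without a filter (adjusted p = 0.0806).

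**Figure D4:**
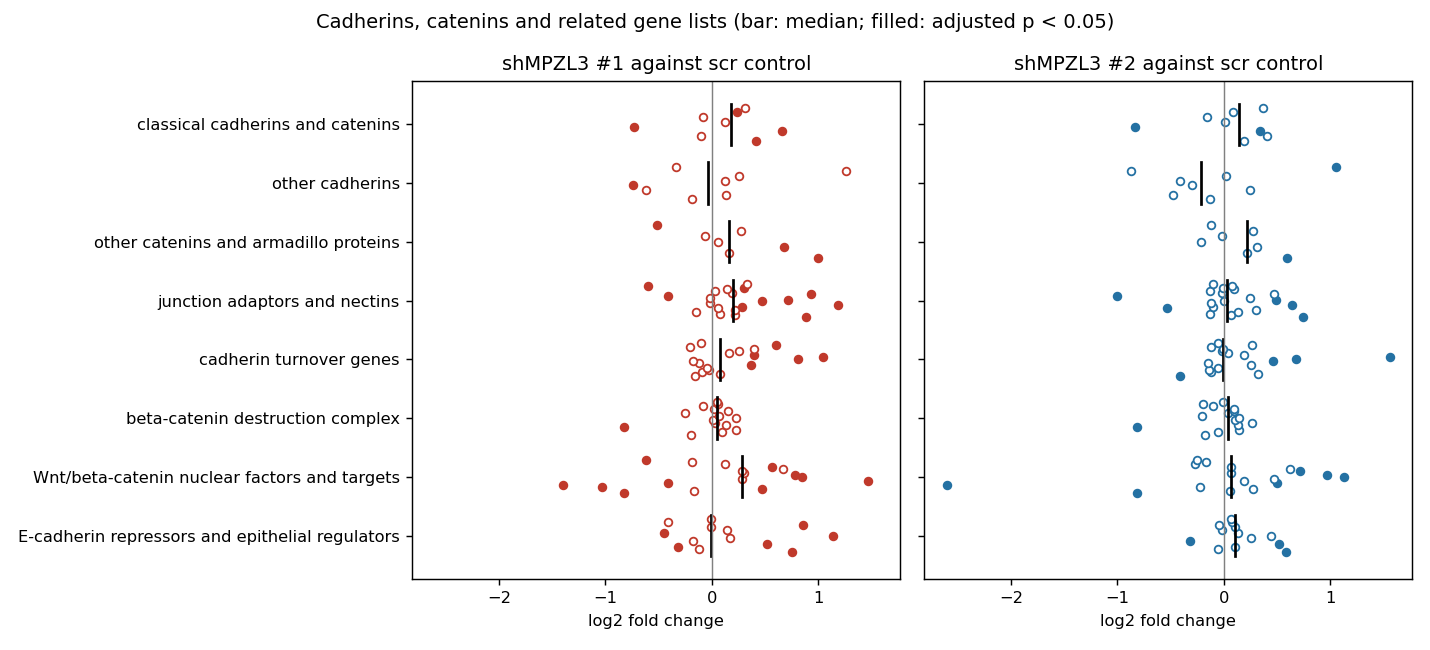
Log2 fold change of each tested gene of the cadherin and catenin set and of the 7 related lists, under shMPZL3 #1 (left) and shMPZL3 #2 (right) against scr control; bars are list medians and filled points have an edgeR adjusted p under 0.05. The list medians lie between -0.21 and 0.28, and most lists hold points on both sides of 0.

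The list medians lay on both sides of 0. With shMPZL3 #1 they ran from -0.03 (other cadherins) to 0.28 (Wnt nuclear factors and targets), with 0.18 for the 8 cadherins and catenins tested, against 0.0087 for all genes. With shMPZL3 #2 they ran from -0.21 (other cadherins) to 0.21 (other catenins), with 0.14 for the cadherins and catenins, against 0.0034. The lists were not tested as sets.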

How the data were processed

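Per the labels, poly-A RNA of the 9 OVCAR4 libraries was made into non-directional libraries, and the submitters' processing notes name HISAT2 2.0.5, featureCounts 1.5.0-p3 and hg38. The authors deposited raw counts per gene, without normalization or pooling. All 58735 gene identifiers and names matched GENCODE release 29 on GRCh38, and 58724 matched in position. Columns were assigned to libraries by label.

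The counts were analysed with edgeR 4.0.16 in R 4.3.3 (filterByExpr, TMM, two-sided quasi-likelihood tests, Benjamini-Hochberg adjustment over 16928 genes, threshold 0.05) and Python 3.11.15. The knockdown libraries were grouped in one fit, as in the study's methods, although the study used DESeq2 for that comparison. The hairpins were compared in a fit of all 3 groups, which share one estimate of the spread. Exact permutation tests used log2 CPM with a prior count of 2. TPM was computed from the gene length column. DESeq2 1.42.0, other normalizations and filters, a replicate block and leaving out each library were alternatives; the longest coding transcript as length was added after the data were seen. The tests against scr control were checked on simulated counts that had the same change under both hairpins. The test between the hairpins was not checked in this way.

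The members and lists were chosen with earlier results of these data known. Named from each list are up to 3 genes called with both hairpins in one direction, by largest grouped change. Total counts of 15040102 or more per library leave counting error small for the 8 tested members. No replicates agreed within counting noise.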

Additional observations from a re-analysis of the deposited data

Results flagged for a closer look

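The hairpins differed in a direct edgeR quasi-likelihood test with Benjamini-Hochberg adjustment for 15 of the genes named in the text, KLF4 not included. Of all genes tested, 7.56% were called in each direction. Several of the 15 were named after their values were seen, so the count partly follows from that choice. CDH2 was higher under shMPZL3 #2 than under shMPZL3 #1 by 0.51 on the log2 scale (adjusted p = 0.0187). All 3 libraries of the second hairpin were above all 3 of the first (exact permutation p = 0.1, the smallest that 3 against 3 can give). CDH3 differed by -0.32 (adjusted p = 0.0313), again with no overlap between the hairpins, and both hairpins were above scr control. The differences of CDH2 and CDH3 were lost when some single libraries were left out, as given above. ARVCF differed by -0.41 (adjusted p = 0.0328), LIMA1 by -0.54 (adjusted p = 0.022) and NECTIN3 by -0.59 (adjusted p = 0.00267). ARVCF and LIMA1 rose more under shMPZL3 #1, the hairpin that left less MPZL3, and NECTIN3 fell more under shMPZL3 #2. The differences of ARVCF and LIMA1 were lost without shMPZL3 #1 replicate 3 (-0.28, adjusted p = 0.167, and -0.48, adjusted p = 0.0813) and without some other single knockdown libraries, and that of NECTIN3 held in every alternative. CTNNBIP1 differed by -0.37 (adjusted p = 0.0223), SNAI1 by -0.90 (adjusted p = 0.00218), COL1A1 by -0.75 (adjusted p = 0.00678), COL1A2 by -1.24 (adjusted p = 0.0032) and CDH26 by -2.14 (adjusted p = 0.0298), all lower under shMPZL3 #2. Higher under shMPZL3 #2 were CDH5 by 1.39 (adjusted p = 0.000395), CDH18 by 0.44 (adjusted p = 0.0293), KLF5 by 0.59 (adjusted p = 0.000588), ESRP2 by 0.43 (adjusted p = 0.0153) and MPZL3 itself by 1.28 (adjusted p = 5.72e-05). Of these 10, the differences of CTNNBIP1, CDH26, CDH18 and ESRP2 were lost in some of the alternatives. Each group has 3 libraries, too few for a test of single stray libraries.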

How the results depend on the processing

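Each value was recomputed under 17 alternatives per comparison. The calls of CDH6 in the 3 comparisons with scr control, and of CDH1 and CDH3 under shMPZL3 #1, held in all of them. The number of members called higher in the grouped comparison, 1 in the main test, was 3 with DESeq2 and when both hairpins were averaged within the fit of 3 groups, 2 with at least 10 counts in every library, and 2 with a replicate block, and leaving out 1 library gave 0 to 3. With shMPZL3 #2 it was 3 with DESeq2, without a filter, with at least 10 counts in every library, with a replicate block and with only the 2 groups compared, and 2 with upper-quartile normalization, and leaving out 1 library gave 0 to 3. Between the hairpins, the 1 member called lower became 0 with only the 2 groups compared, and leaving out 1 library gave 0 to 1 higher and 0 to 1 lower. Values near 0 changed sign in 6 cases. CDH2 under shMPZL3 #1 was -0.235 to 0.030 when 1 library was left out, positive only without shMPZL3 #1 replicate 3. CTNNA1 under shMPZL3 #2 was -0.0067 with library totals only and -0.011 to 0.024 when 1 library was left out, negative without scr control replicate 1 or 2. JUP between the hairpins was -0.067 to 0.178 in the same way, negative without shMPZL3 #1 replicate 2 or shMPZL3 #2 replicate 3. Of 82 calls of named genes outside the 10, KLF4 not included, 51 held in every alternative and none reversed. The causes were not tested. Over all genes, 1584 were called higher and 1083 lower in the grouped comparison. Without 1 library the numbers ran from 453 and 172 (without scr control replicate 1) to 1771 and 1466 (without shMPZL3 #2 replicate 2). Libraries with the same replicate number did not deviate together in every pair (correlations -0.00143 to 0.218), and the main tests did not pair them. With scr control, like-numbered pairs ran from -0.00143 to 0.111 and unlike pairs from -0.0965 to 0.0671. Between the hairpins, like-numbered pairs did deviate together (0.0966 to 0.218, against -0.147 to 0.00376 for unlike pairs). The cause was not tested. With a replicate block in edgeR, JUP passed in all 3 comparisons with scr control (adjusted p = 0.0477, 0.0111 and 0.00625) and CDH2 under shMPZL3 #2 (adjusted p = 0.0185). Over all genes, the block called 2015 higher and 1808 lower between the hairpins (1279 and 1280 without it), and 1434 and 990 in the grouped comparison.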

Other observations

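Of the 12 ovarian carcinoma markers, WFDC2 (HE4) rose from 1180 ± 58.6 normalized counts in the scr libraries to 2674 ± 426 under shMPZL3 #1 and 3019 ± 328 under shMPZL3 #2, while FOLR1, the folate receptor, fell from 904 ± 25.7 to 532 ± 74.6 and 555 ± 42.7 (SD, n = 3 each, edgeR calls with both hairpins). EPCAM stayed at 8275 ± 472, 7794 ± 412 and 8276 ± 388. Among the markers of other cell types, COL1A1 rose from 265 ± 29.5 to 688 ± 162 and 409 ± 77.8, and LUM from 89.4 ± 19.2 to 153 ± 42.9 and 243 ± 69.3. COL1A2 rose under shMPZL3 #1, from 52.8 ± 3.3 to 164 ± 47.3, and had 68.7 ± 21.7 under shMPZL3 #2 (edgeR adjusted p = 0.000219 and 0.368). CD14 was called higher with both hairpins at 3 to 34 counts per library, and DCN had no counts. The call of COL1A1 under shMPZL3 #2 was lost without scr control replicate 2 or 3 or replicate 1 or 3 of that hairpin (adjusted p = 0.0568 to 0.124), and the call of LUM under shMPZL3 #1 without scr control replicate 2 or 3 or replicate 2 or 3 of that hairpin (adjusted p = 0.0678 to 0.114). That of CD14 under shMPZL3 #1 was lost without scr control replicate 1 or 3 or shMPZL3 #1 replicate 3, and that under shMPZL3 #2 without any one library of the groups compared (adjusted p up to 0.18). The call of CD14 under shMPZL3 #2 was also lost without a filter on low counts and without shMPZL3 #1 replicate 2 (adjusted p = 0.0538 and 0.0529). LUM, CD14, COL1A1 and COL1A2 were named after their values were seen.

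Across the 9 libraries, the protein-coding genes whose log2 CPM was most like that of CDH3 were LMOD1 (Pearson's r = 0.996), RAB11FIP5 (0.994) and OS9 (0.993), and those most like CDH6 were ALDH3A2 (0.986), PSPC1 (0.982) and SLC44A1 (0.976), out of 11826 genes compared. Of these, 629 genes reached an r of 0.9 with CDH3 and 229 with CDH6. The points share the same 3 groups and the same libraries, and the values are descriptions.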
